A study of Mus musculus with 96 samples.

Results

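The samples described here are 6 of the 96 in the series: C2C12 mouse myoblasts carrying LbNOX, 3 given antimycin and 3 given DMSO, the solvent, for 10 hr. The 6 samples were found by their labels. C2C12 is an established mouse line of proliferating muscle precursors, and LbNOX is a bacterial NADH oxidase that turns NADH and oxygen into NAD+ and water in the cytosol. The transgene was delivered by lentivirus into a stable line and was expressed from a doxycycline-inducible promoter. All groups used here were kept in 300 ng/ml doxycycline in medium with 10 mM glucose and 10% dialyzed serum, without pyruvate or uridine. Antimycin was given at 0.5 µM. Beside these stand 3 samples of LbNOX myoblasts with 0.5 µM piericidin, and 6 samples each, 3 with antimycin and 3 with DMSO, of control myoblasts carrying luciferase and of myoblasts carrying mitoLbNOX, the same oxidase sent to the mitochondrial matrix. Nothing in the labels says that replicates came from separate cultures, so p-values measure the spread between these samples, which may be technical. Each line is a transduced population of one cell line, and differences between the lines other than the transgene cannot be told apart from its effect.

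Antimycin blocks complex III, which passes electrons from ubiquinol to cytochrome c, whereas piericidin blocks complex I, which takes electrons from NADH. With complex III blocked, NADH and ubiquinol both lose their route to oxygen. LbNOX can oxidize NADH of the cytosol without the respiratory chain, but it does not oxidize ubiquinol or pump protons, and dihydroorotate dehydrogenase, the mitochondrial enzyme of pyrimidine synthesis, passes its electrons to ubiquinone. The comparison of antimycin with DMSO in LbNOX myoblasts asks which changes in RNA levels accompany a block of complex III while cytosolic NADH has another oxidant. The integrated stress response (ISR) raises ATF4, a transcription factor for amino acid synthesis, transport and tRNA charging. The p53 protein is a transcription factor that is controlled mainly through its stability and raises genes of cell cycle arrest, apoptosis and its own feedback.

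The promoters of 6 genes that the results turn on are printed to show motifs known for p53, for ATF4 and for late cell cycle genes. Each is the 250 bases before a gene start of RefSeq on GRCm38.p6, 5′ to 3′ along the gene's strand, with the searched motif in capitals. Ccng1 (chr11:40755287-40755536, minus strand) encodes cyclin G1 and Cdkn1a (chr17:29090729-29090978, plus strand, the first listed of its starts) encodes p21, an inhibitor of cyclin-dependent kinases. Their capitals mark a 20-base match to the p53 consensus site without a spacer and with its C and G core letters intact, each with 1 mismatch at the other positions.
Ccng1: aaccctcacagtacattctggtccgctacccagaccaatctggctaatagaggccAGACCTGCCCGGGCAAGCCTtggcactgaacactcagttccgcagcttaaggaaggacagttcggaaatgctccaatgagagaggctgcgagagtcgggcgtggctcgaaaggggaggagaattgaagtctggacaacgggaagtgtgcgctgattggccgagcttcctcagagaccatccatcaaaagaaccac
Cdkn1a: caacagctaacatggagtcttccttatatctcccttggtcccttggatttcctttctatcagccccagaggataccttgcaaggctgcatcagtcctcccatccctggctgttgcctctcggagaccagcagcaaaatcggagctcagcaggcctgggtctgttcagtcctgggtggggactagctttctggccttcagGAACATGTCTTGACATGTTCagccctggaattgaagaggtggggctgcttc
Atf3 (chr1:191183334-191183583, minus strand) encodes a stress transcription factor, Chac1 (chr2:119350992-119351241, plus strand) an enzyme that degrades glutathione, and Asns (chr6:7693210-7693459, minus strand) asparagine synthetase. Their capitals mark TGATGNAA, the core at which ATF4 binds with a C/EBP partner, on either strand.
Atf3: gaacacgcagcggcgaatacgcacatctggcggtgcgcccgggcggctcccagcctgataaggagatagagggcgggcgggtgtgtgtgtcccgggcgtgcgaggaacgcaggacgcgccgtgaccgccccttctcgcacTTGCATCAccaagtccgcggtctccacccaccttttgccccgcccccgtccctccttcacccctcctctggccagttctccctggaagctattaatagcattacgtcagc
Chac1: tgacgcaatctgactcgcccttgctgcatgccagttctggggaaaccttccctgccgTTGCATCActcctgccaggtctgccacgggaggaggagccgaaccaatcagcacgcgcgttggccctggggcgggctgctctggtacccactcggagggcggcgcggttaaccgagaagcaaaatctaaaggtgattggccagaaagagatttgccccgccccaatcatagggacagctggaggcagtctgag
Asns: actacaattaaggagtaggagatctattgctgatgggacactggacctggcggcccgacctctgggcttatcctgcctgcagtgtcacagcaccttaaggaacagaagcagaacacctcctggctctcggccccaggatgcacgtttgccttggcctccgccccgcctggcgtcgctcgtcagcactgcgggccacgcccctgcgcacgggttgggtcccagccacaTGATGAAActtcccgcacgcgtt
Cdc20 (chr4:118437344-118437593, minus strand) encodes the activator of the anaphase-promoting complex, and its capitals mark TTTGAA, the cell cycle genes homology region (CHR) of late cell cycle genes.
Cdc20: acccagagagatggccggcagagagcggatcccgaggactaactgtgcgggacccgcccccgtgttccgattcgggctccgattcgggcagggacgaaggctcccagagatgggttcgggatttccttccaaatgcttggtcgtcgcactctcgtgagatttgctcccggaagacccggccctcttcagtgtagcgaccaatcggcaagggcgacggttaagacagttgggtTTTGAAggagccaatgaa
Of the 11981 genes tested, 8828 had such a window. The p53 consensus site, allowed up to 2 mismatches, was in 0.283% of these windows, the ATF4 core in 1.84% and the CHR element in 10.3%, all searched on both strands. Among genes higher with antimycin in LbNOX myoblasts, 12 of 2148 windows (0.559%) held the p53 consensus site, against 6 of 2060 (0.291%) among genes that were lower. The ATF4 core was in 2.23% and 1.60% of the same 2 groups of windows. A match is a description of letters and not of binding. None of these motifs contains another.

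The 6 samples held between 8504635 and 14960910 counts, within the range of 7796879 to 14960910 over the 37 samples modelled. LbNOX itself checked the labels against the control line, with normalized counts (counts scaled to a common library size) of 9567, 9164 and 9870 with DMSO and 2426, 2878 and 3476 with antimycin, and with 0 counts in all 6 control samples. The mitoLbNOX transgene is counted under the same name, so the presence of these counts does not set LbNOX apart from mitoLbNOX myoblasts. In LbNOX myoblasts the transgene mRNA was lower in every antimycin sample than in any DMSO sample. Its fold was 0.307 ± 0.0552 (SD, n = 3) and its log2 fold change -1.70 (adjusted p = 2.96e-10 by edgeR, SE 0.12). With piericidin the LbNOX level was 10275 on average and its log2 fold change was 0.11 (adjusted p = 0.627 by edgeR, SE 0.11). The luciferase mRNA of the control line, behind the same kind of promoter, was at 1936, 1892 and 2023 with DMSO and at 1121, 910 and 1183 with antimycin. How far the lower LbNOX mRNA bears on the results below was not tested. A single gene, CT010467.1, took 29.4 ± 0.522% of counts with antimycin and 25.7 ± 0.408% with DMSO (SD, n = 3 each). Of 10 myoblast markers 9 were tested, with Des (desmin) at 3250.2 to 3535 and Cdh15 (M-cadherin) at 816 to 951 normalized counts over the DMSO samples. Adgre1, Tek, Epcam and Adipoq, markers of macrophages, endothelium, epithelium and adipocytes, were at 0 counts in all 6 samples, but other members of their lists were not. Summed over each list, normalized counts ranged over the 6 samples from 128 to 190.5 for macrophage and 6.57 to 34.7 for endothelial markers. The ranges were 61.8 to 112 for epithelial and 59.2 to 135 for adipocyte markers. In these bulk samples, fewer cells of a type and less RNA per cell cannot be told apart.

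Antimycin changed 5524 of 11981 genes in LbNOX myoblasts at an adjusted p under 0.05 (edgeR quasi-likelihood F test), which is 46.1% of those tested. Of these, 2786 (23.3%) rose and 2738 (22.9%) fell, and 1149 moved by at least 2-fold, 398 of them higher and 751 lower. The median log2 fold change over all genes was 0.03. In control myoblasts the same dose changed 7568 genes (63.2%), 3844 higher (32.1%) and 3724 lower (31.1%), with 2725 moved by at least 2-fold. The difference between the 2 responses was tested as an interaction over samples that the responses do not share, and it passed at 6175 genes (51.5%), 2960 higher (24.7%) and 3215 lower (26.8%) in LbNOX than in control myoblasts.

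The direction of change often turned between the lines. Of the 2786 genes that rose in LbNOX myoblasts, 1386 (49.7%) rose also in control myoblasts, 593 (21.3%) fell there and 807 were not called. Of the 2738 that fell, 1277 (46.6%) fell in control myoblasts, 639 (23.3%) rose and 822 were not called.

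**Figure D1:**
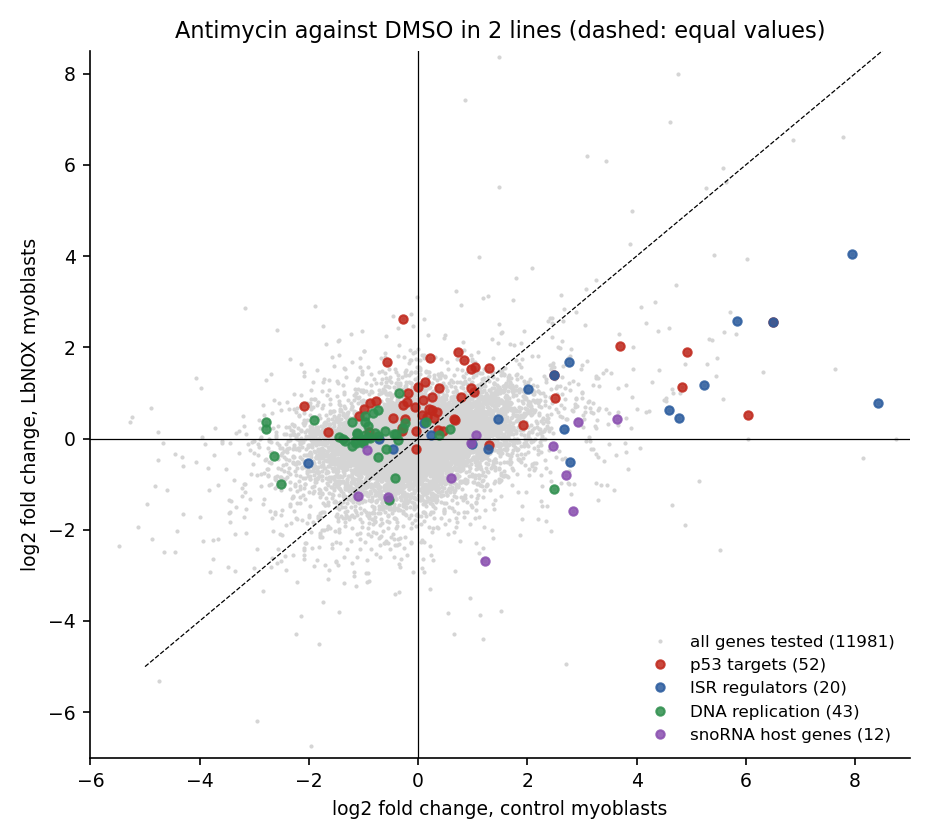
Log2 fold changes of antimycin against DMSO in control myoblasts (horizontal axis) and LbNOX myoblasts (vertical axis), each point a gene and the dashed line marking equal values; 7 genes lie outside the axes. The 52 p53 targets tested lie mostly above 0 on the vertical axis, with a median of 0.76, the 20 ISR regulators lie mostly to the right of the dashed line, with a median of 2.58 in control and 0.44 in LbNOX myoblasts, and the 43 DNA replication genes lie mostly left of it, with medians of -0.92 and 0.08.

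The 10 genes with the largest increases by the rule for named genes were Cdsn, Cth, Tmem151a, Kank3, Trp53inp1, Phyhd1, Trib3, Gdf15, Acot2 and Slc25a42. Cdsn, which encodes corneodesmosin, was at 10.97, 14.3 and 19.1 normalized counts with DMSO and at 281.2, 259 and 307 with antimycin, a log2 fold change of 4.26 (SE 0.16). Cth (chr3:157894248-157925077), the cystathionine gamma-lyase of cysteine synthesis, went from 78.6, 72.2 and 76.5 to 762, 707 and 724, a log2 fold change of 3.27 (SE 0.10). Neither gene's groups overlapped, and control myoblasts raised them by log2 fold changes of 3.87 and 3.07, so that the differences between the lines, 0.39 for Cdsn (adjusted p = 0.213) and 0.20 for Cth (adjusted p = 0.231), did not pass the test. Tmem151a rose by 2.84 (SE 0.58) and Phyhd1 by 2.58 (SE 0.30), beside 2.68 and 2.37 in control myoblasts. Acot2, a mitochondrial acyl-CoA thioesterase, rose by 2.53 (SE 0.16) in LbNOX and by 4.18 in control myoblasts, a difference of -1.65 (adjusted p = 3.60e-07). Kank3 and Slc25a42, the mitochondrial carrier of coenzyme A, rose by 2.68 (SE 0.37) and 2.19 (SE 0.33) in LbNOX myoblasts, while their control values of -0.46 and 0.47 did not pass the test. The differences between the lines were 3.14 for Kank3 (adjusted p = 4.08e-05) and 1.72 for Slc25a42 (adjusted p = 0.00423). Exons of Kank3 overlap those of Rps28 on the other strand, and the library protocol does not mark strand.

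The 10 largest decreases were mt-Nd4l, Cpne1, Angpt1, Zfp213, Ppp1r10, Arhgap18, mt-Nd3 and 3 histone genes, Hist2h3c2, Hist1h2ap and Hist1h2ab. Cpne1 (chr2:156071842-156111965), a calcium-dependent membrane-binding protein, was at 676, 631 and 651 normalized counts with DMSO and 36.6, 46.0 and 55.2 with antimycin, a fold of 0.0704 ± 0.0142 (SD, n = 3) and a log2 fold change of -3.83 (adjusted p = 4.28e-20 by edgeR, SE 0.13). In control myoblasts Cpne1 rose by 0.54, and the difference was -4.37 (SE 0.17). Exons of Cpne1 lie on the same strand as those of Rbm12, an RNA-binding protein gene, which rose by 1.06 (SE 0.10) in LbNOX and fell by 1.64 on the log2 scale in control myoblasts, and the estimated counts could be split differently between such genes. Zfp213, a zinc finger gene, fell by 3.30 on the log2 scale (SE 0.18) beside 0.21 in control myoblasts, where it was not called. Ppp1r10, a regulator of protein phosphatase 1 in the nucleus, fell by 3.15 (SE 0.13) in LbNOX myoblasts. This was more than in control myoblasts (-0.93, difference -2.22, adjusted p = 1.97e-12, edgeR) and less than in mitoLbNOX myoblasts (-3.84, difference 0.69, adjusted p = 0.00767, edgeR). Angpt1, the angiopoietin ligand of the Tek receptor, and Arhgap18, a GTPase-activating protein, fell by 3.35 (SE 0.17) and 3.15 (SE 0.30). For these 2 genes the control decreases were 2.83 and 2.22 on the log2 scale, and the differences of -0.51 (SE 0.24) and -0.92 (SE 0.42) missed the threshold (adjusted p = 0.0723 and 0.0651). The mitochondrial and histone genes are described with their groups below.

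Every target of p53 that was called rose. Of 56 listed genes 52 were tested, and 38 rose and 0 fell in LbNOX myoblasts (0 fell also by DESeq2, and 0 at an unadjusted p under 0.05), beside 23.3% and 22.9% of all genes, with a median log2 fold change of 0.76 against 0.03 over all genes. In control myoblasts 19 rose and 9 fell, with a median of 0.23, beside 32.1% and 31.1% of all genes. Counts of the lists below in control myoblasts stand beside the same shares. The difference between the lines was called higher in LbNOX myoblasts for 27 targets and lower for 10, beside 24.7% and 26.8% of all genes. By role, 8 of 10 genes of cell cycle arrest, 10 of 13 of apoptosis, 2 of 5 of feedback on p53, 2 of 4 of DNA repair and nucleotide supply and 6 of 9 of metabolism and redox rose. For the lists below that had a count of 0 in one direction against DMSO in LbNOX myoblasts, DESeq2 also gave 0, and at an unadjusted p under 0.05 edgeR gave 0 apart from 1 mitosis gene, 1 interferon response gene and 1 epithelial marker that were higher. Other alternatives that gave 1 call in place of 0 are named with the lists.

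Cdkn1a (chr17:29090976-29100727), whose promoter is printed above, was at 1219.7, 1121 and 1236 normalized counts with DMSO and 4515, 4567 and 4161 with antimycin, without overlap. This is a fold of 3.70 ± 0.185 (SD, n = 3) and a log2 fold change of 1.89 (adjusted p = 6.04e-22 by edgeR, SE 0.05), beside 0.74 in control myoblasts, and the difference of 1.15 passed the test (adjusted p = 3.68e-14). Trp53inp1 (chr4:11156431-11174379), a p53-induced nuclear protein of stress and autophagy, was at 84.1, 96.0 and 70.5 with DMSO and at 534, 536 and 483 with antimycin. Its log2 fold change was 2.62 (SE 0.26), while in control myoblasts it was -0.28 (adjusted p = 0.361 by edgeR, SE 0.27). Ccng1, a p53 target that recruits a phosphatase to Mdm2, turned direction, at 2543, 2474 and 2434 with DMSO and 4571, 4479 and 4110.0 with antimycin. It rose by 0.82 (SE 0.06) in LbNOX and fell by 0.77 on the log2 scale in control myoblasts, a difference of 1.59 (adjusted p = 1.10e-16). Mdm2, the ubiquitin ligase that degrades p53, rose by 1.02 (SE 0.06) in LbNOX and by 1.02 in control myoblasts, with a difference of -0.01 (SE 0.08, adjusted p = 0.95). Its samples were at 859, 856 and 873 with DMSO and 1741, 1675 and 1813 with antimycin.

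Other targets that rose included Pmaip1, the apoptosis protein Noxa, by 1.91 (SE 0.12). Pmaip1 also responds to other stresses, and it rose by 4.91 in control myoblasts. Zmat3, a zinc finger RNA-binding protein, and the death receptor gene Fas rose by 0.99 (SE 0.17) and 1.55 (SE 0.26), beside -0.19 (not called) and 1.30 in control myoblasts. Among the 14 targets not called were Ppm1d, a phosphatase of p53 feedback, at 0.80 (adjusted p = 0.197), Apaf1, the scaffold of the apoptosome, at 0.58 (adjusted p = 0.0888), and Rrm2b, the p53-induced ribonucleotide reductase subunit, at 0.18 (adjusted p = 0.401). Zmat3, Fas, Ppm1d, Apaf1 and Rrm2b were named after their values were seen. Trp53 itself fell, from 1808, 1805 and 1631 normalized counts to 1555, 1454 and 1549.6, a log2 fold change of -0.20 (adjusted p = 0.00435 by edgeR, SE 0.06). Of 9 tested regulators of p53 5 fell and 1 rose, beside 22.9% and 23.3% of all genes. Among those that fell were the inhibitor Mdm4 (-0.51), the deubiquitinase Usp7 (-0.58) and the checkpoint kinases Atr (-0.57) and Chek2 (-0.58), while Chek1 was higher by 0.37. The call of Chek1 was lost without antimycin replicate 3, and that of Chek2 without antimycin replicate 1 or DMSO replicate 3, while Apaf1 was called without antimycin replicate 3. Protein levels were not measured. The p53 consensus site was in 4 of 43 windows of the targets, those of Ccng1, Cdkn1a, Ckap2 and Zfp365.

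**Figure D2:**
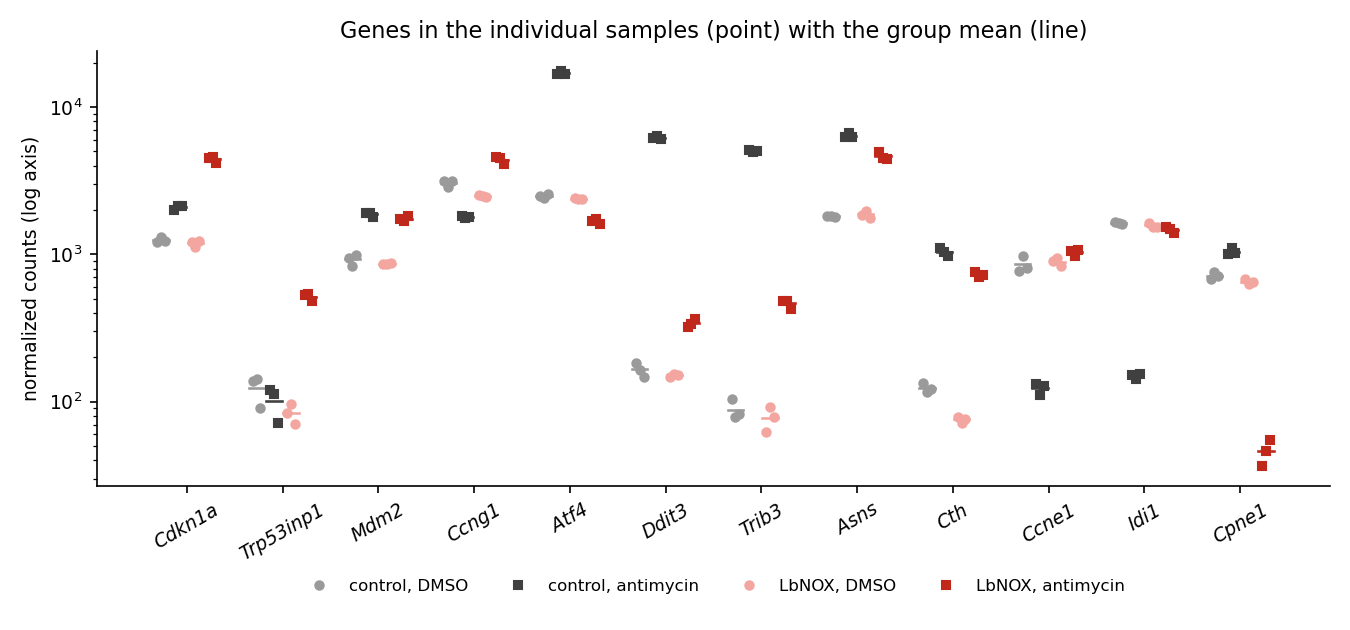
Normalized counts (log axis) of 12 genes in the 3 samples (points) of control and LbNOX myoblasts with DMSO or antimycin, with a line at each group's mean. Cdkn1a (4161 to 4567), Trp53inp1 and Ccng1 are highest in LbNOX myoblasts with antimycin, Atf4, Ddit3 and Trib3 are highest in control myoblasts with antimycin, and Cpne1 is lowest in LbNOX myoblasts with antimycin (36.6 to 55.2).

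Genes of the ISR responded in part. Of 20 regulators tested 11 rose and 2 fell in LbNOX myoblasts (1 fell without antimycin replicate 2 or DMSO replicate 1 or 2), with a median log2 fold change of 0.44, while 16 rose and 3 fell in control myoblasts, with a median of 2.58, and 13 of the 20 were lower in LbNOX myoblasts by the test of the difference and 2 higher. Over all genes 23.3% rose and 22.9% fell in LbNOX myoblasts, 32.1% and 31.1% did in control myoblasts, and the difference was called higher for 24.7% and lower for 26.8%. Atf4 was at 2407, 2362 and 2369 normalized counts with DMSO and at 1674, 1728 and 1610.4 with antimycin. The groups did not overlap and Atf4 dropped by 0.51 on a log2 scale (adjusted p = 7.49e-14 by edgeR, SE 0.03), while it rose by 2.78 (SE 0.03) in control myoblasts. Atf3, whose promoter holds the ATF4 core shown above, stayed near the limit of counting, at 8.23, 17.0 and 8.05 with DMSO and 27.7, 14.5 and 16.9 with antimycin. Its groups overlapped and its log2 fold change of 0.78 missed the threshold (adjusted p = 0.0514 by edgeR, SE 0.33), but it was called by DESeq2 (adjusted p = 0.0312), with a covariate for outer against inner wells, a reading of the position codes in the sample labels that the labels do not explain (adjusted p = 0.0251, edgeR), without antimycin replicate 2 or 3 (adjusted p = 0.0310 and 0.0493, edgeR) and without DMSO replicate 2, where it was 1.30 (adjusted p = 0.00731, edgeR). The value in control myoblasts was 8.42, where its mean went from 10.3 to 3597.

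Several targets of ATF4 rose in LbNOX myoblasts, of which Gdf15 is also listed as a p53 target. ATF4 protein was not measured in these samples. Trib3, a pseudokinase that restrains ATF4, was at 62.2, 91.9 and 78.5 with DMSO and at 480.2, 486 and 428 with antimycin, a log2 fold change of 2.57 (SE 0.09). Ddit3, the transcription factor CHOP, went from 147, 155 and 151 to 321, 337 and 365, a rise of 1.17 (SE 0.07), and Gdf15, a circulating stress cytokine, went from 75.9, 72.9 and 61.4 to 409, 404 and 425, a rise of 2.55 (SE 0.12). In none of the 3 did the groups overlap, and all 3 rose less than in control myoblasts, with differences of -3.27, -4.06 and -3.96 (adjusted p = 7.19e-19, 1.33e-24 and 3.63e-18, edgeR). Chac1 rose by 0.62 (SE 0.11) beside 4.60 in control myoblasts. Fgf21, a hormone of the fasted and stressed state, was at 1.83, 0 and 0 with DMSO and 14.9, 3.94 and 13.5 with antimycin, which is called (adjusted p = 0.000196, edgeR) but rests on few counts. Exons of Ddit3 overlap those of Mars on the other strand.

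Genes of amino acid synthesis were counted in a list of their own. All 17 listed were tested, 16 rose and 1 fell, with a median of 0.80, beside 12 higher and 1 lower in control myoblasts with a median of 1.11. The difference between the lines was called lower in LbNOX myoblasts for 8 and higher for 3. The shares of all genes were 23.3% higher and 22.9% lower in LbNOX myoblasts, and 26.8% lower and 24.7% higher for the difference. Asns was at 1856, 1967 and 1774 normalized counts with DMSO and 4929, 4492 and 4469.5 with antimycin. It rose by 1.31 (SE 0.05), beside 1.82 in control myoblasts and a difference of -0.50 (adjusted p = 2.95e-07, edgeR). Psph, the phosphatase of the last step of serine synthesis, rose by 1.497 (SE 0.05) from 828, 829 and 808 to 2333, 2392 and 2239. Its control value of 1.54 did not differ from this beyond error (difference -0.04, SE 0.07, adjusted p = 0.628). Pycr1, the mitochondrial reductase of proline synthesis, went from 133, 157 and 137 to 299, 302 and 320.1, a rise of 1.10 (SE 0.09), while in control myoblasts it was at -0.04 (adjusted p = 0.835), and the difference of 1.14 passed the test (adjusted p = 1.21e-08). Aldh1l2, a mitochondrial enzyme of one-carbon metabolism, rose by 1.53 (SE 0.06) beside 2.44. The member that fell was Cbs, the cystathionine beta-synthase, by 1.01 on the log2 scale (adjusted p = 0.0459 by edgeR, SE 0.42), a call that was lost by DESeq2 and without antimycin replicate 2 or 3 or DMSO replicate 2 or 3.

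Amino acid transporters rose in 6 of 11 cases and fell in 2, and cytosolic tRNA synthetases rose in 14 of 20 and fell in 2, beside 23.3% and 22.9% of all genes. Slc7a3, a transporter of cationic amino acids, went from 0, 0.681 and 3.02 normalized counts to 25.7, 18.4 and 14.7 (adjusted p = 5.24e-05, edgeR), and Slc7a5, the large neutral amino acid transporter, rose by 1.57 (SE 0.13) beside 2.49. Slc38a2, a glutamine and alanine transporter, fell by 0.79 on the log2 scale (SE 0.05) and Slc1a4 by 0.52 (SE 0.06), beside 0.36 and 1.42 in control myoblasts. Among synthetases Wars (1.22), Nars (1.09), Sars (1.04) and Gars (0.94) rose most, while Farsb (-0.88) and Dars (-0.85) fell. The median synthetase response was 0.45 in LbNOX and 1.20 in control myoblasts. The difference was called lower in LbNOX myoblasts for 17 of 20 and higher for 0, beside 26.8% and 24.7% of all genes.

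**Figure D3:**
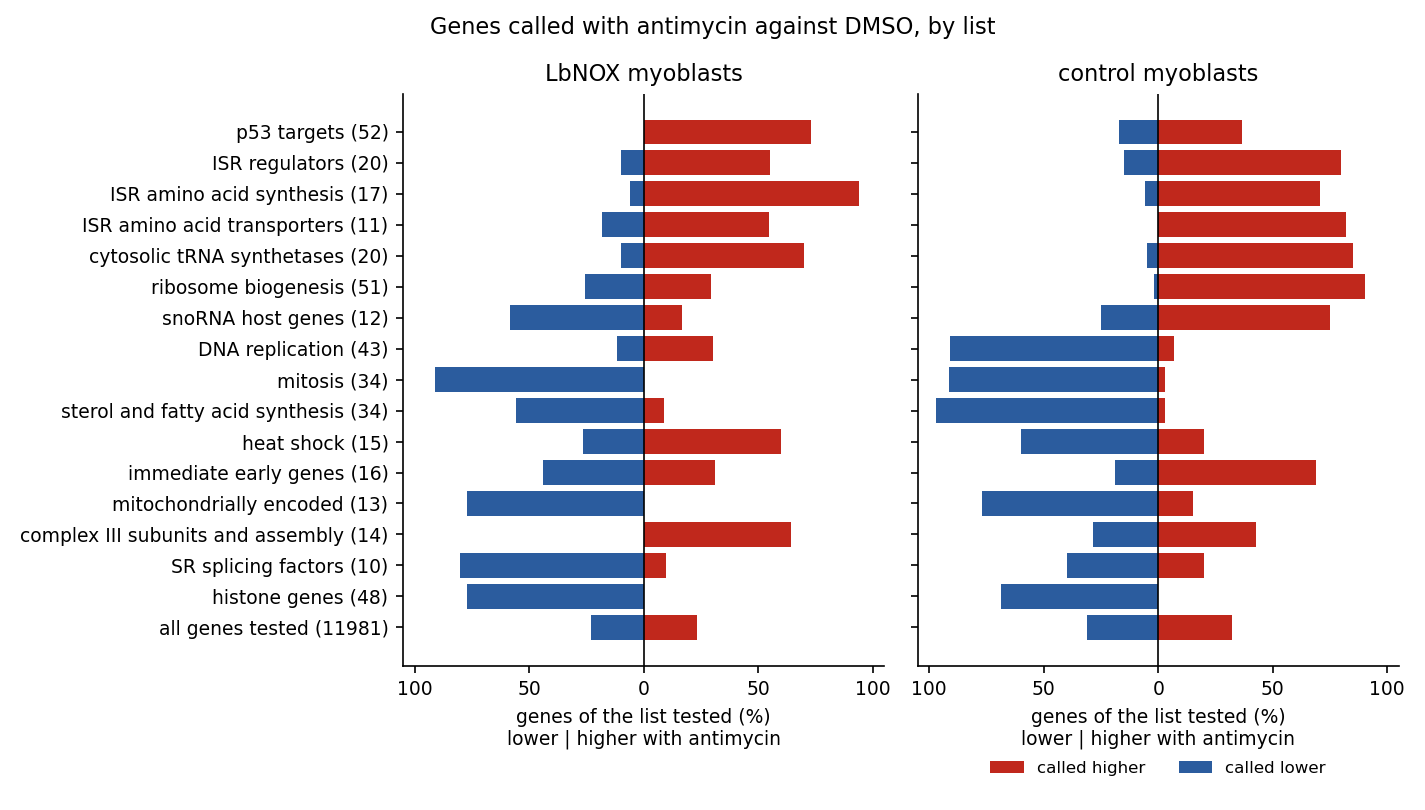
Share of the tested genes of each list called higher (red, right of 0, %) or lower (blue, left of 0, %) with antimycin against DMSO in LbNOX myoblasts (left panel) and control myoblasts (right panel), with the number tested in parentheses and all genes tested in the lowest bars. In LbNOX myoblasts 38 of 52 p53 targets were called higher and 0 lower, ribosome biogenesis genes were split into 15 higher and 13 lower, and DNA replication genes into 13 higher and 5 lower, against 46 and 1, and 3 and 39, in control myoblasts. The SR splicing factor and histone groups were chosen after their values were seen.

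Pyrimidine synthesis depends on electrons leaving through complex III. Cad, the enzyme of the opening steps, rose by 0.43 (SE 0.06) in LbNOX myoblasts, from 1299, 1248 and 1179 normalized counts to 1698, 1714 and 1592, without overlap. Umps, which makes UMP, rose by 0.24 (SE 0.07), while Dhodh, the dihydroorotate dehydrogenase, was at 212, 241 and 219 with DMSO and 256, 216 and 219.8 with antimycin, with overlapping groups (log2 fold change 0.04, SE 0.10, adjusted p = 0.768, edgeR). Control myoblasts gave 0.47 for Cad, -0.03 for Umps and 0.03 for Dhodh, and among the 3 differences only that of Umps was called (0.27, adjusted p = 0.0161). The Umps call was lost without the count filter (adjusted p = 0.133, edgeR). It was also lost without antimycin replicate 1 of LbNOX myoblasts or antimycin replicate 2 of control myoblasts (adjusted p = 0.0523 and 0.0574, edgeR). Ctps, the CTP synthase, was at 0.11 (adjusted p = 0.0455 by edgeR, SE 0.04), and this call was lost by DESeq2 (adjusted p = 0.129). Over the list 7 of 26 rose and 6 fell, close to the 23.3% and 22.9% of all genes, and 4 rose without the count filter or with only the groups compared. Among those that fell were the ribonucleotide reductase subunits Rrm1 and Rrm2, by 0.76 (SE 0.05) and 0.52 (SE 0.04) on the log2 scale.

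Genes of DNA replication and of mitosis were counted as separate lists. Of 43 DNA replication genes 13 rose and 5 fell, beside 23.3% and 22.9% of all genes, with a median log2 fold change of 0.08, whereas 3 rose and 39 fell in control myoblasts, with a median of -0.92, and the difference was called higher in LbNOX myoblasts for 35 and lower for 5 (24.7% and 26.8% of all genes). Ccne1, cyclin E1 of the entry into S phase, was at 899.7, 939 and 839.5 normalized counts with DMSO and 1050.5, 972 and 1074 with antimycin. Its log2 fold change of 0.21 (adjusted p = 0.0463 by edgeR, SE 0.09) was not called by DESeq2 (adjusted p = 0.0531) or without antimycin replicate 1 or 3 or DMSO replicate 1 or 3 (adjusted p from 0.0813 to 0.168, edgeR). In control myoblasts Ccne1 fell by 2.78 on the log2 scale, and the difference of 2.99 passed the test (adjusted p = 6.75e-18). Rfc4, a subunit of the clamp loader, rose by 1.00 (SE 0.09), from 459, 475 and 471 to 909, 912 and 995. Prim2 and Pola1, of the primase complex, fell by 1.35 (SE 0.11) and 0.87 (SE 0.07). Tk1, the thymidine kinase of S phase, was at -0.30 (SE 0.05) beside -2.41 in control myoblasts, with exons that overlap those of Afmid on the other strand. Myc, listed with the replication genes, fell by 1.11 (SE 0.06), from 839, 765 and 810.3 to 408, 341 and 366, while it rose by 2.50 in control myoblasts.

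Of 34 mitosis genes 31 fell and 0 rose in LbNOX myoblasts (1 rose with the covariate for outer wells), with a median of -0.72, and 31 fell and 1 rose in control myoblasts, with a median of -0.74. Of all genes 22.9% fell and 23.3% rose in LbNOX myoblasts. The difference between the lines was called higher for 15 and lower for 8, beside 24.7% and 26.8% of all genes. Plk1, the polo-like kinase of mitotic entry, was at 1393, 1499 and 1276 with DMSO and 548, 532 and 574 with antimycin, a log2 fold change of -1.33 (SE 0.08), and its difference of -0.13 from control myoblasts did not pass the test (adjusted p = 0.336). Ccnb1, cyclin B1, fell by 1.21 (SE 0.05), from 2941, 3168 and 3041 to 1360.3, 1319 and 1268, more than in control myoblasts (-0.24, difference -0.98, adjusted p = 1.15e-12). Cdc20, whose promoter is printed above, fell by 0.67 (SE 0.05). Aurkb, a kinase of chromosome segregation, was at -0.11 (adjusted p = 0.143) beside -1.60 in control myoblasts. The CHR element was in 8 of 27 windows of this list (29.6%), and CCAAT, the pentamer bound by NF-Y, in 23 of 27 (85.2%) beside 37.3% of all windows. The E2F core TTTNNCGC was in 10 of 31 windows of the DNA replication genes (32.3%) beside 7.59% of all.

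Ribosome biogenesis genes and the host genes of small nucleolar RNAs also set the lines apart. Of 51 ribosome biogenesis genes 15 rose and 13 fell in LbNOX myoblasts, close to the 23.3% and 22.9% of all genes, with a median of 0.06. In control myoblasts 46 rose and 1 fell, with a median of 0.77, beside 32.1% and 31.1% of all genes. The difference was called lower in LbNOX myoblasts for 41 and higher for 2, beside 26.8% and 24.7% of all genes. Nop56, a core protein of box C/D particles, was lower, from 2776, 2828 and 2681 to 2339, 2226 and 2443 (log2 fold change -0.24, SE 0.04), while in control myoblasts it rose by 1.52. Polr1a, the large subunit of RNA polymerase I, fell by 0.53 (SE 0.08) and Wdr74, a factor of large-subunit assembly, rose by 0.74 (SE 0.08). Nop56 was named after its values were seen.

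Of 12 small nucleolar RNA host genes 7 fell and 2 rose (1 rose without antimycin replicate 2 or DMSO replicate 1), with a median of -0.52, beside 3 lower and 9 higher in control myoblasts with a median of 1.14, and the difference was called lower for 10 and higher for 0. Over all genes 22.9% fell and 23.3% rose, and 26.8% were lower by the difference. Snhg5 was at 619, 599.9 and 591 normalized counts with DMSO and 88.1, 126 and 69.9 with antimycin, a log2 fold change of -2.68 (SE 0.11) beside 1.22 in control myoblasts. Snhg1 went from 368, 373 and 409.7 to 113, 134 and 135, a change of -1.59 (SE 0.09) beside 2.83. In both genes every antimycin sample lay below every DMSO sample. Snhg12 rose, by 0.43 (SE 0.11) beside 3.65. Cytosolic ribosomal protein genes moved little, with 15 of 32 higher and 2 lower and a median of 0.12 (0.42 in control myoblasts), and 9 were called higher without DMSO replicate 2. The 2 lower calls became 1 or 0 when any single sample was left out.

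Of 34 sterol and fatty acid synthesis genes 19 fell and 3 rose in LbNOX myoblasts (22.9% and 23.3% of all genes), with a median of -0.30. In control myoblasts 33 fell and 1 rose (31.1% and 32.1% of all genes), with a median of -1.02. The difference was called higher in LbNOX myoblasts for 24 and lower for 0 (24.7% and 26.8% of all genes). Hmgcs1, the HMG-CoA synthase, went from 1924, 1971 and 1914 to 1009, 889 and 919.6 (log2 fold change -1.04, SE 0.06) beside -2.59 in control myoblasts. Idi1, the isopentenyl diphosphate isomerase, was at 1640.3, 1536 and 1541 with DMSO and 1545, 1488 and 1389.5 with antimycin, with overlapping groups and a log2 fold change of -0.09 (adjusted p = 0.301 by edgeR, SE 0.07), beside -3.45 in control myoblasts. Elovl6, an elongase of fatty acids, fell most, by 2.07 on the log2 scale (SE 0.12).

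Glycolysis genes and targets of the hypoxia factor HIF were divided, with 13 of 33 higher and 10 lower, but these counts rest on single samples. Called higher were 7 without antimycin replicate 1 and 8 without DMSO replicate 1 or 2, and called lower were 5 without DMSO replicate 2, while 5 were higher without the count filter. Ndrg1, a stress gene of hypoxia, rose by 1.63 (SE 0.06) beside 4.89 in control myoblasts, and Egln3, a prolyl hydroxylase, was at -0.99 (SE 0.18) beside -3.17. Txnip, an inhibitor of glucose uptake that follows glucose phosphates, was at 36.6, 32.7 and 43.3 with DMSO and 70.3, 72.3 and 54.1 with antimycin. Its rise of 0.81 (adjusted p = 0.0212 by edgeR, SE 0.29) was not called without antimycin replicate 1 or 2 or DMSO replicate 1 or 2 (adjusted p from 0.0544 to 0.0828, edgeR). In control myoblasts Txnip fell by 2.41 on the log2 scale, and the difference of 3.22 passed the test (adjusted p = 1.05e-06). Of 16 genes of the NADH shuttles and lactate transport 5 rose and 1 fell, beside 23.3% and 22.9% of all genes, the latter being Slc25a12, an aspartate-glutamate carrier of the malate-aspartate shuttle, at -1.38 (SE 0.09).

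Heat shock genes held strong changes in opposite directions. Hspa8, the constitutive HSC70, went from 18981, 19578 and 18875 to 8232, 8380.2 and 8191, a log2 fold change of -1.21 (SE 0.03) beside -1.16 in control myoblasts. Inducible Hspa1b rose from 269.7, 224 and 223 to 689, 639 and 633 (log2 fold change 1.45, SE 0.12) but fell by 2.09 on the log2 scale in control myoblasts, and Hspa1a, a near-identical copy between which counts may be split, rose by 1.24 (SE 0.48), a call lost without antimycin replicate 1 or any single DMSO sample. Over the list 9 of 15 rose and 4 fell. Of 15 targets of the antioxidant factor NRF2 7 rose and 0 fell, led by Gsta4, a glutathione transferase, at 0.86 (SE 0.06). Of 19 chaperones of the ER and mitochondria 4 rose and 3 fell, beside 23.3% and 22.9% of all genes, with the mitochondrial protease Lonp1 highest at 1.41 (SE 0.11).

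Immediate early genes, which growth factors and stress raise without new protein synthesis, rose in 5 of 16 cases and fell in 7, beside 11 and 3 in control myoblasts. Over all genes 23.3% rose and 22.9% fell in LbNOX myoblasts, against which the counts of this and the next lists stand. Klf6, a zinc finger factor, was at 1424, 1301 and 1299 with DMSO and 670.3, 676 and 692 with antimycin, a log2 fold change of -0.98 (SE 0.05) beside 3.25 in control myoblasts. Egr2 fell most, from 42.1, 26.6 and 43.3 to 0, 1.31 and 3.38, and Fos rose by 1.24 (SE 0.33). Matrix genes and targets of YAP rose in 11 of 19 cases and fell in 6, and the YAP and SRF targets Cyr61 and Ankrd1 turned direction, falling by 1.22 (SE 0.05) and 0.98 (SE 0.06) on the log2 scale beside rises of 2.80 and 2.61 in control myoblasts. Among 12 inflammatory mediators 3 rose and 5 fell, with Ptgs2, the inducible cyclooxygenase, higher by 1.37 (SE 0.07) and the chemokine Cxcl12 lower by 1.69 on the log2 scale (SE 0.13). Of 11 interferon response genes 1 fell and 0 rose (0 fell without antimycin replicate 3 or DMSO replicate 2, and 1 rose without antimycin replicate 2 or DMSO replicate 3), beside 7 higher and 3 lower in control myoblasts. Among myoblast markers and regulators 4 of 17 rose and 7 fell. Myod1, the master factor of the lineage, fell by 0.78 (SE 0.07), from 1178, 1167 and 1081 to 733, 656 and 609, and Id3, an inhibitor of differentiation, fell by 1.36 (SE 0.04). Cd68, also a lysosomal gene, was the single macrophage marker of 2 tested that rose (2.57, SE 0.40), with a summed level of the 7 macrophage markers of 165 to 190.5 with antimycin and 128 to 163 with DMSO. Of markers of other cell types, 0 of 1 endothelial and 0 of 2 epithelial genes tested were called (1 endothelial gene was lower without antimycin replicate 1 and 1 epithelial gene higher without antimycin replicate 2), and the single adipocyte marker tested, Pparg, was lower at -1.04.

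The mRNAs encoded by mitochondrial DNA, which carry subunits of complexes I, III, IV and V, took 0.537 ± 0.0110% of counts with antimycin and 0.896 ± 0.0489% with DMSO (SD, n = 3 each). The 3 antimycin samples, at 0.540%, 0.524% and 0.545%, all lay below the DMSO samples, at 0.952%, 0.863% and 0.872% (two-sided exact permutation test p = 0.1, the smallest that 3 against 3 samples allow). With the mitochondrial rRNAs added the share was 2.33%, 2.185% and 2.198% with antimycin and 2.62%, 2.17% and 2.44% with DMSO, and the groups overlapped (exact permutation test p = 0.4, two-sided). Of the 13 mRNAs 10 fell and 0 rose (1 rose without the count filter or with only the groups compared), with a median log2 fold change of -1.37. In control myoblasts 10 fell and 2 rose, with a median of -0.59. Of all genes 22.9% fell and 23.3% rose in LbNOX myoblasts, against 31.1% and 32.1% in control myoblasts.

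Along the heavy-strand transcript the changes were uneven. The 12S and 16S rRNAs at its start, mt-Rnr1 and mt-Rnr2, were at 0.65 and 0.29, and mt-Nd1 fell from 16907, 16271 and 16166 normalized counts to 14225, 13455 and 13513 (log2 fold change -0.26, SE 0.09). mt-Nd2, which follows, fell by 1.07 on the log2 scale (SE 0.10), whereas mt-Co1 and mt-Co2, of complex IV, were at 0.13 (adjusted p = 0.176) and 0.07, without a call. mt-Rnr2 was not called without antimycin replicate 1 or DMSO replicate 2, and mt-Co1 was called higher without the count filter. Further on, mt-Atp6 changed by -1.37, mt-Nd3 by -3.13 (SE 0.25), mt-Nd4 by -2.07 (SE 0.09), mt-Nd5 by -1.96 and mt-Cytb, the cytochrome b of complex III, by -2.34 (SE 0.09). mt-Cytb was at 8376, 8432 and 7961 with DMSO and 1709.8, 1550.1 and 1616 with antimycin, a fold of 0.197 ± 0.00972 (SD, n = 3), while in control myoblasts it fell by 0.39 on the log2 scale and the difference of -1.95 passed the test (adjusted p = 2.24e-14). For mt-Nd1 the difference had the other sign, 0.74 (adjusted p = 6.12e-06), with control myoblasts at -1.003. mt-Nd4l, which shares bases with mt-Nd4, was at 325, 252 and 304 with DMSO and 0, 0 and 58.6 with antimycin. mt-Nd6, the mRNA of the light strand, was at -0.08 and was not called.

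**Figure D4:**
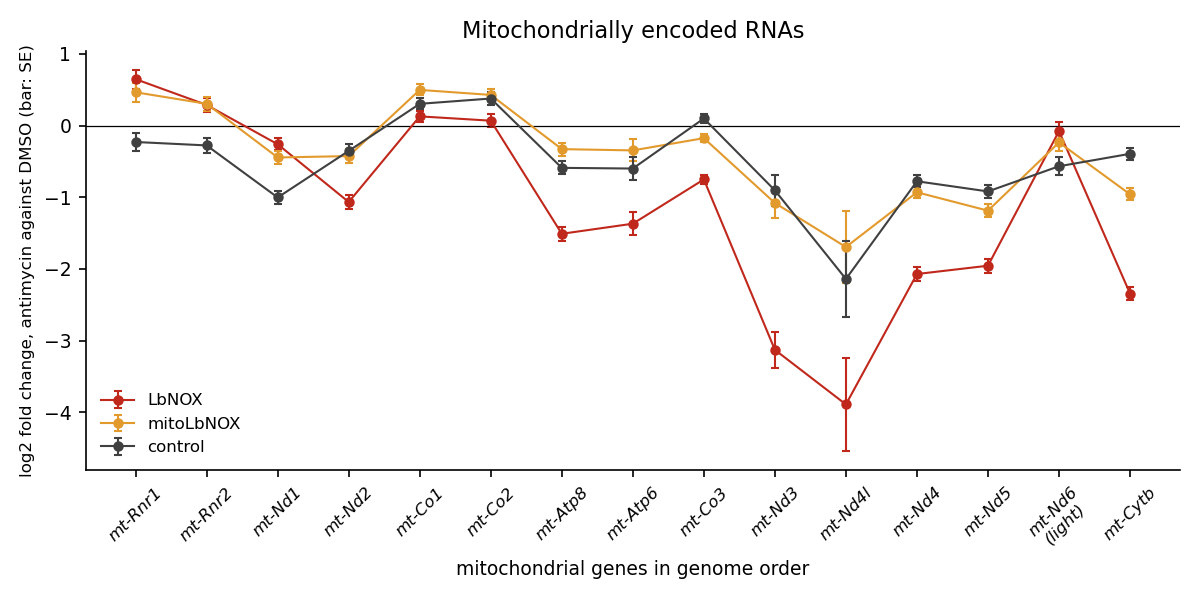
Log2 fold change of antimycin against DMSO (vertical axis, bars are SE) for the mitochondrial rRNAs and mRNAs in genome order in LbNOX, mitoLbNOX and control myoblasts. LbNOX myoblasts run lowest from mt-Atp8 to mt-Cytb apart from mt-Nd6, with mt-Cytb at -2.34 against -0.96 in mitoLbNOX and -0.39 in control myoblasts.

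Nuclear genes of the respiratory chain were counted beside the 23.3% and 22.9% of all genes that rose and fell. Of 14 subunits and assembly factors of complex III, the target of antimycin, 9 rose and 0 fell, with a median of 0.27 (4 rose without the count filter, and 1 fell without DMSO replicate 3), and 6 rose and 4 fell in control myoblasts. Uqcrq rose from 739, 669 and 825 to 1054, 1074 and 1078 (log2 fold change 0.52, SE 0.11) and Cyc1, cytochrome c1, from 2769, 2914 and 2942 to 3734, 3654 and 3685 (0.36, SE 0.04), in both cases without overlap. Uqcrfs1, the Rieske iron-sulfur protein, was at -0.04 (adjusted p = 0.571). Uqcc2, an assembly factor, rose most, by 0.59 (SE 0.10). Families taken by symbol after their values were seen gave 34 of 45 Nduf genes of complex I higher and 0 lower (median 0.30, and 13 and 10 in control myoblasts) and 11 of 12 complex IV genes higher and 0 lower (median 0.38). Of 78 mitochondrial ribosomal protein genes 30 rose and 8 fell.

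Splicing factors and histones were also grouped by symbol after their values were seen, so their counts carry no test and stand beside the 22.9% of all genes that fell and 23.3% that rose. Of 10 Srsf genes of the SR family, which guide splice site choice, 8 fell and 1 rose in LbNOX myoblasts (0 rose without antimycin replicate 3 or DMSO replicate 1). Their median was -1.19, beside 0.11 in control myoblasts and -0.54 in mitoLbNOX myoblasts, where 8 fell and 0 rose. Srsf7 was at 1786, 1561 and 1583 normalized counts with DMSO and 528, 539 and 423 with antimycin, a fold of 0.302 ± 0.0391 (SD, n = 3) and a log2 fold change of -1.73 (SE 0.08), while it rose by 1.12 in control myoblasts and the difference of -2.84 passed the test (adjusted p = 7.41e-20). Srsf3 fell in both lines, by 1.30 (SE 0.04) and 1.07 on the log2 scale. Of 20 hnRNP genes 14 fell and 1 rose (2 rose without DMSO replicate 3), with Hnrnpdl at 1450.2, 1499 and 1349.9 with DMSO and 333, 402 and 366 with antimycin (log2 fold change -1.97, SE 0.06), beside 0.36 in control myoblasts. Of 48 histone genes 37 fell and 0 rose in LbNOX myoblasts (1 rose without DMSO replicate 2), among them Hist1h2ap from 5239, 4626 and 5685 to 595, 647 and 679.6. The histone median was -2.21, beside -1.499 in control myoblasts and -2.13 in mitoLbNOX myoblasts, where 38 fell and 0 rose. Most histone genes are near-identical copies whose counts may be split between them, and their main transcripts lack the polyA tail on which the libraries select.

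Decreases followed gene length. Length was taken as the distance from a gene's first to its last annotated base, and the bins were set after values were seen. Among 11025 protein-coding genes the median log2 fold change in LbNOX myoblasts was 0.17 for 1156 genes of up to 5 kb, -0.34 for 923 genes of 100 to 200 kb and -0.78 for 482 genes over 200 kb, of which 67.8% were called lower and 2.70% higher. In control myoblasts the same 482 genes had a median of 0.04, with 24.7% lower and 31.3% higher, in mitoLbNOX myoblasts -0.20, and with piericidin in LbNOX myoblasts 0.02. The difference between LbNOX and control responses was called lower for 61.4% of them. Summed over these genes, normalized counts were 118048, 116817 and 120167 with DMSO and 85533, 82215 and 83987 with antimycin, so that no antimycin sample reached a DMSO sample. Genes over 200 kb had medians of -0.94, -0.68 and -0.40 in the lowest, middle and highest tercile of expression (n = 237, 184 and 61), and genes of up to 5 kb had medians of 0.02, 0.22 and 0.21 (n = 402, 323 and 431). The Spearman correlation between length and log2 fold change across the 11025 genes was -0.32 in LbNOX, 0.03 in control and -0.10 in mitoLbNOX myoblasts, as a description, since genes share their libraries and are not replicates. The median length was 16395 bases over the p53 targets, 2969 over 11 of the snoRNA hosts and 15307 over the DNA replication genes, and the part of length in the counts of these lists was not tested.

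**Figure D5:**
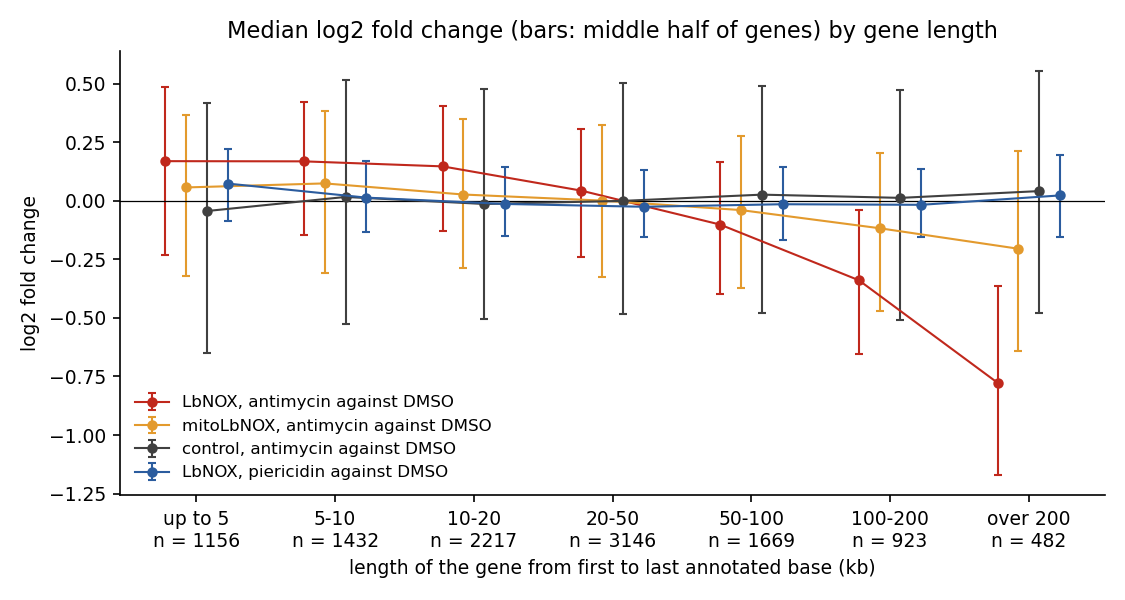
Median log2 fold change (points, with bars from the lower to the upper quartile) of protein-coding genes in 7 bins of gene length in kb, for antimycin in LbNOX, mitoLbNOX and control myoblasts and for piericidin in LbNOX myoblasts, each against DMSO. The line for antimycin in LbNOX myoblasts runs from 0.17 in the shortest bin to -0.78 in the longest, and the other 3 end between -0.20 and 0.04.

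Between the lines, the differences reported here by the rule for named genes were again of both signs. Higher in LbNOX than in control myoblasts were Ung, the uracil-DNA glycosylase, by 4.11 (SE 0.31), Slfn9 by 3.95 (SE 0.34), Ddit4l, an inhibitor of mTOR signalling, by 3.76 (SE 0.45), and Tcf19 by 3.70 (SE 0.18). Ddit4l rose with antimycin in LbNOX myoblasts, by 2.07 (SE 0.29), whereas Ung and Slfn9 did not pass the test there (-0.34 and 0.23) and fell by 4.45 and 3.72 on the log2 scale in control myoblasts. Lower were Cxcl10, an interferon-induced chemokine, at -7.97 (SE 1.05), Atf3 at -7.64 (SE 0.48), Gadd45a, a stress gene of growth arrest, at -5.52 (SE 0.60), Ch25h, the cholesterol 25-hydroxylase, at -4.85 (SE 0.95), and F3, tissue factor, at -4.52 (SE 0.19). Cxcl10 rests on few counts in LbNOX myoblasts, at 4.57, 12.3 and 2.01 with DMSO and 0.99, 2.63 and 0 with antimycin, with overlapping groups. F3 went from 194, 205 and 182 normalized counts to 118, 122 and 126 in LbNOX myoblasts, while its control means went from 163 to 2356. Gadd45a, a listed p53 target, stayed at 6.04 to 15.8 in all 6 LbNOX samples.

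MitoLbNOX myoblasts, which oxidize NADH in the matrix, changed 5711 genes with antimycin (47.7%), 2966 higher (24.8%) and 2745 lower (22.9%). Their response differed from that of LbNOX myoblasts at 3500 genes (29.2%), with 1519 higher (12.7%) and 1981 lower (16.5%) in LbNOX myoblasts. Of the p53 targets 24 rose and 9 fell in mitoLbNOX myoblasts, with a median of 0.25, and 25 were higher and 7 lower in LbNOX than in mitoLbNOX myoblasts by the test of the difference. Cdkn1a rose by 0.56 there, and its difference of 1.33 passed the test (adjusted p = 6.45e-15). Atf4 rose by 1.98, a difference of -2.49 (adjusted p = 8.19e-27), and DNA replication genes were higher in LbNOX myoblasts for 33 of 43. The rule for named genes gave Ddit4l (2.48), Arc (2.37), Mgea5 (2.24) and Trp53inp1 (2.19) as higher and Atf3 (-4.79), Gadd45a (-4.60), Ddit3 (-3.31), F3 (-3.10) and Ppp1r15a (-2.70) as lower. Ppp1r15a encodes the phosphatase subunit that ends the ISR and Arc is an activity-regulated gene. LbNOX and mitoLbNOX transgene mRNAs fell by 1.70 and 1.21 on the log2 scale with antimycin.

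With complex I blocked by piericidin, LbNOX myoblasts changed 1063 genes (8.87%), 600 higher (5.01%) and 463 lower (3.86%), 87 of them by at least 2-fold. This comparison shares its DMSO samples with that of antimycin, so the values are set side by side only. Antimycin and piericidin samples of LbNOX myoblasts, compared directly, differed at 5102 genes (42.6%), 2581 higher (21.5%) and 2521 lower (21.0%) with antimycin. Of the p53 targets, 42 of 52 were higher with antimycin than with piericidin and 0 lower (1 at an unadjusted p under 0.05), and against DMSO piericidin gave 5 higher and 5 lower with a median of -0.09. Cdkn1a averaged 1108 with piericidin, at a log2 fold change of -0.11 against DMSO (adjusted p = 0.22). The largest differences between the inhibitors by the rule were Trp53inp1 (3.43, SE 0.28), Kank3 (2.75), Ddit4l (2.17), Tap1 (2.14) and Glt28d2 (2.09) as higher with antimycin, and Cpne1 (-3.72), mt-Nd4l (-3.58), Zfp213 (-3.25), Ppp1r10 (-3.05) and mt-Nd3 (-3.05) as lower.

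The inhibitors were also compared over ISR genes. Of 20 ISR regulators 4 were higher and 5 lower with antimycin than with piericidin, and of 17 amino acid synthesis genes 11 were higher and 1 lower, beside 21.5% and 21.0% of all genes. Trib3 was at 483 with piericidin on average, a log2 difference of -0.06 between the inhibitors (adjusted p = 0.603 by edgeR, SE 0.08), and Ddit3 was at 318, a difference of 0.10 (adjusted p = 0.255 by edgeR, SE 0.07). Gdf15, also listed as a p53 target, was 1.52 higher on the log2 scale with antimycin (SE 0.11). Atf4, which rose by 0.55 with piericidin, was lower with antimycin by 1.06 on the log2 scale (adjusted p = 3.17e-21 by edgeR, SE 0.03). Txnip, at 7.93 on average with piericidin, was 3.03 higher with antimycin (SE 0.35). Mitosis genes were lower with antimycin than with piericidin in 26 of 34 cases and higher in 1, and for genes over 200 kb the median difference between the inhibitors was -0.75.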

How the data were processed

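RNA was measured in C2C12 myoblast lines after 10 hr of treatment, in libraries made by Smart-seq2 from polyA-selected RNA, which does not mark strand. The authors quantified reads with kallisto 0.44 with bias correction after bcl2fastq 2.20.0.422, summarized transcripts to genes with tximport and summed 2 flow cells. The deposited values are estimated counts per gene, given as whole numbers and not normalized. Samples were grouped by their labels.

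Tests used edgeR 4.0.16 (quasi-likelihood F test, TMM scaling, Benjamini-Hochberg adjustment, threshold 0.05) on one fit of 37 samples in 13 myoblast groups. Genes needed at least 16 counts in every replicate of a group, which left 11981. Differences between lines were interaction contrasts. SE is the log2 fold change over the square root of F. Normalized counts are counts over TMM-scaled library size, times the mean of that size. Folds with SD divide each antimycin sample by the DMSO mean. Total counts were 7796879 to 14960910 per sample, which limits genes of few counts.

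Members, comparisons and 29 gene lists (627 genes) were chosen with earlier results of these data known. Named genes were up to 10 per direction with the largest called change in the main comparison (mean of at least 50 normalized counts, samples not overlapping, no predicted symbols), up to 5 per direction in the other differences, up to 4 called members per direction of each list, and a set of ISR, p53 and metabolic genes chosen by name. Some genes that this rule gives are not reported here. Motifs and gene families by symbol were added after values were seen. Gene positions are from GENCODE M21 on GRCm38. Alternatives were other scaling, no count filter, DESeq2 1.42.0, a replicate block, a covariate for position codes in the labels, which these do not explain, read as outer or inner wells of a plate, fewer groups and leaving out each sample. On simulated counts, 51 of 100 genes changed 1.5-fold and 70 of 100 changed 2-fold were recovered for antimycin against DMSO in LbNOX myoblasts, with 5 false calls among 11604 genes. For the difference from control myoblasts 27 and 53 of 100 were recovered, with 2 false calls. Only these few genes were changed in the simulation, whereas 46.1% of genes were called in the data. The rates therefore do not carry over to the comparisons above.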

Additional observations from a re-analysis of the deposited data

Results flagged for a closer look

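The antimycin response of LbNOX myoblasts differed from that of control myoblasts at 6175 of 11981 genes and from that of mitoLbNOX myoblasts at 3500 genes, by the interaction terms of the edgeR fit. Among the named genes reported here, those below were called in opposite directions in LbNOX and control myoblasts, and the difference itself passed the test. Higher in LbNOX myoblasts, on the log2 scale, were Ddit4l by 3.76, Tcf19 by 3.70, Glt28d2 by 3.36, Txnip by 3.22, Ccne1 by 2.99, Arc by 2.22, Rbm12 by 2.69, Hspa1b by 3.54, Hspa1a by 3.16, Mgea5 by 1.88, Ccng1 by 1.59, Rfc4 by 1.36 and mt-Rnr2 by 0.56. Lower were Cxcl10 at -7.97, F3 at -4.52, Snhg1 at -4.43, Cpne1 at -4.37, Klf6 at -4.23, Cyr61 at -4.02, Snhg5 at -3.90, Myc at -3.61, Ankrd1 at -3.59, Atf4 at -3.29, Srsf7 at -2.84, Hnrnpdl at -2.33, Pparg at -2.28, Slc1a4 at -1.94, Nop56 at -1.76, Mdm4 at -1.34, Farsb at -1.28, Slc38a2 at -1.15, Myod1 at -1.05 and Polr1a at -0.97. In each of these genes apart from Cxcl10 the antimycin and DMSO samples of LbNOX myoblasts did not overlap. The LbNOX calls of Ccne1, Txnip, Hspa1a, mt-Rnr2, Arc, Mgea5 and Cxcl10 were lost when single samples were left out, for Arc without antimycin replicate 1 or DMSO replicate 1, for Mgea5 without antimycin replicate 1 and for Cxcl10 without antimycin replicate 1 or 3 or DMSO replicate 2 (adjusted p = 0.103, 0.141 and 0.328, edgeR). Exons of Glt28d2 overlap on the same strand those of Gm37240, between which estimated counts may be split.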

How the results depend on the processing

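Counts of called genes in the 7 comparisons stayed within 1.5 times of the values given, under other size factors, no count filter, DESeq2, the replicate block and the covariate for position codes, with the exception of piericidin against DMSO in LbNOX myoblasts, which gave 558 genes in place of 1063 when only the groups compared were modelled. For antimycin against DMSO in LbNOX myoblasts the counts ran from 4984 without the filter to 5633 with the replicate block. Residuals of samples with the same replicate number correlated at 0.13, -0.03 and 0.02, so the numbers were not taken as pairs. Leaving out single samples gave 4897 to 5052 genes for that comparison, 5825 to 5939 for the difference from control and 3151 to 3285 for the difference from mitoLbNOX myoblasts. It gave 4489 to 4736 for antimycin against piericidin, 7080 to 7245 and 5153 to 5361 for antimycin in control and mitoLbNOX myoblasts, and 711 to 939 for piericidin. The median of genes over 200 kb was -0.79 with DESeq2 size factors, -0.81 without the filter, -0.80 by DESeq2, -0.80 with only the groups compared and -0.82 with CT010467.1 left out of library sizes, an alternative added after seeing the data, and -0.78 to -0.75 when single samples were left out. The difference in the mitochondrial mRNA share, -0.359 percentage points, was -0.171 with the rRNAs added and -0.375 to -0.331 when single samples were left out. Signs turned only for Dhodh and Mdm2, where no value was called. The Dhodh log2 fold change in LbNOX myoblasts was -0.0447 without antimycin replicate 1, in a range of -0.0447 to 0.0991 over single samples left out. The Dhodh log2 fold change of LbNOX minus control myoblasts was -0.0211 without the filter, -0.0477 with the covariate, -0.00195 with CT010467.1 left out and -0.0779 to 0.140 over single samples left out. The Mdm2 log2 fold change of LbNOX minus control myoblasts was 0.0316 with only the groups compared and -0.0582 to 0.0638 over single samples left out. The cause of these shifts was not tested. Calls of Ctps and Ccne1 were lost under 11 and 9 of 13 alternatives. Genes of few counts, among them Fgf21, Cxcl10, Slc7a3 and Egr2, are limited by depth.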
